A study of Mus musculus with 4 samples.

Results

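Ribosomal protein genes were examined in E14 mouse embryonic stem cells, a line of inbred 129 origin, after knockdown of Kdm2b. Genes were taken from the array by symbol: Rpl, Rps, Rplp and Rpsa for the cytosolic ribosome and Mrpl and Mrps for the mitochondrial one, leaving out the S6 kinases, Rps19bp1, Rpl10l and pseudogenes. Only probe sets (the groups of probes read as a single value) that carry 1 symbol in the platform annotation were used, and a gene with several is represented by its brightest, averaged over the arrays. This gave 138 of 19938 genes: 37 of the cytosolic large subunit, 24 of the cytosolic small subunit, 48 of the mitochondrial large subunit and 29 of the mitochondrial small subunit. The subunit was read from the symbol alone, which need not match where each protein sits.

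Total RNA was profiled on 4 Affymetrix MoGene 1.0 ST arrays, 2 of cells labelled as control and 2 of cells with Kdm2b knocked down. All cells grew on gelatin, without a feeder layer named in the labels, in 15% serum and 1000 units/ml leukemia inhibitory factor. The labels give both groups the same treatment, lentivirus at 10 MOI (multiplicity of infection) and puromycin at 2 µg/ml from 48 h on; what the control vector carried, which sequence targeted Kdm2b and the day of harvest are not in the labels. They also do not say whether replicates were separate cultures, so the p-values describe the spread among these particular arrays, and that spread may be technical. RNA came from whole cultures, and fewer cells of a type and less RNA per cell cannot be told apart.

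Ribosomes translate messenger RNA, and each is built of a large and a small subunit in which proteins surround ribosomal RNA. The cytosolic ribosome makes nearly all cell proteins, and its protein genes are among the most steadily transcribed of a growing cell; many of their transcripts begin with a pyrimidine run, the TOP motif, through which the mTOR kinase controls their translation. The mitochondrial ribosome makes the few proteins encoded by mitochondrial DNA, all of them parts of the respiratory chain or of ATP synthase. The proteins of this ribosome are themselves encoded in the nucleus and imported. Kdm2b is a histone demethylase that binds unmethylated CpG-rich DNA through a zinc finger and belongs to a variant Polycomb repressive complex 1; the series asks what its loss does to embryonic stem cells. Many ribosomal protein genes start in such CpG-rich DNA.

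Kdm2b itself read 10.74 and 10.64 in control and 9.20 and 9.19 after knockdown, as deposited log2 values, a fall of 2.82-fold (log2 difference -1.50, SE 0.066, limma adjusted p = 0.0039). Throughout, a change is the mean of the knockdown arrays minus the mean of the control arrays on the log2 scale, and a gene is called higher or lower at a limma p, adjusted by Benjamini-Hochberg over all 19938 genes, under 0.05. Across those genes, 12.2% were called (5% higher, 7.19% lower), and on 58.8% the 2 control arrays did not overlap the 2 knockdown arrays (33.8% above, 25% below). Replicate arrays correlated at 0.9963 (control) and 0.9966 (knockdown) over all probe sets, against 0.9922 to 0.9936 between groups. The list of 12 embryonic stem cell markers had no called gene and a median change of -0.01, and 2 of 11 fibroblast markers were called, Twist1 higher and Acta2 lower. Of 12 primitive endoderm markers 5 were called higher, and all 12 read above control. The median over those 12 was 9.24 and 8.995 in control and 9.53 and 10.30 after knockdown; their part in the results that follow was not tested.

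Few ribosomal protein genes moved. Rps23rg1, a retroposed copy of the small-subunit gene Rps23, fell 2.04-fold. It is counted here by its symbol, and these data do not show whether its product is a ribosomal protein. In the mitochondrial ribosome 3 genes rose: Mrps6 by 1.51-fold, Mrpl14 by 1.40-fold and Mrps7 by 1.27-fold. These 4 are 2.9% of the 138, beside the 12.2% called among all genes. None of the 37 cytosolic large-subunit genes was called in limma (2 were higher at an unadjusted p under 0.05), nor any of the 54 cytosolic genes that remain without paralogues and retrogenes (1 higher at an unadjusted p under 0.05).

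The promoters of the 4 called genes are shown because they lie at both ends of the range of CpG content, the feature that Kdm2b's zinc finger reads. Each stretch runs from 130 bases before the annotated start to 20 bases from it on, 5′ to 3′ on the strand of the gene, with CpG dinucleotides in capitals, from RefSeq on GRCm38.p6. They lie at chr16:92058206-92058355 (Mrps6), chr17:45686219-45686368 (Mrpl14), chr11:115604010-115604159 (Mrps7) and chr8:3567868-3568017 (Rps23rg1), all on the plus strand.
Mrps6: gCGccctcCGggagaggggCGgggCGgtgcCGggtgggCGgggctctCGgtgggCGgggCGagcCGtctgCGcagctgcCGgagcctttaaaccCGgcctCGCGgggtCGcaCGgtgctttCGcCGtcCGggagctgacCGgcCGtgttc
Mrpl14: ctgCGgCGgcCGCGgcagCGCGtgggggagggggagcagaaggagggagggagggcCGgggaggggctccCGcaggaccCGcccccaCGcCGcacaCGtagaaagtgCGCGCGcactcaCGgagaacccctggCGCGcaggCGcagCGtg
Mrps7: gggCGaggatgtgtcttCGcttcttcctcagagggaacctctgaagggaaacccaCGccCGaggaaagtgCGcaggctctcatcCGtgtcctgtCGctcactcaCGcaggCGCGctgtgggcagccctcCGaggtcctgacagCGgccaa
Rps23rg1: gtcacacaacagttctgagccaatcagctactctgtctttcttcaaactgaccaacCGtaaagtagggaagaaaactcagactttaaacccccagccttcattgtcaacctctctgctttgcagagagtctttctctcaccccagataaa
The stretches of Mrps6, Mrpl14 and Mrps7 hold 22, 20 and 12 CpG, and that of Rps23rg1 holds 1. Binding of Kdm2b at these sites was not measured on these arrays.

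Rps23rg1 read 11.38 and 11.19 in control and 10.36 and 10.15 after knockdown. Each knockdown array lay below each control array by more than the replicates differed from each other (log2 difference -1.03, SE 0.102, limma adjusted p = 0.00691). Its parent gene Rps23, a protein of the decoding site of the small subunit, is represented by 6 probe sets that also carry the predicted gene Gm8624, and these changed by -0.05 to -0.04. In the annotation Rps23rg1 overlaps the pseudogene Rps23-ps2, so the transcript behind the value is uncertain, and probes that match the near-identical Rps23 messenger RNA would add its signal.

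Mrps6, a small-subunit protein with a bacterial counterpart, read 10.31 and 10.39 in control and 10.94 on both knockdown arrays (log2 difference 0.59, SE 0.0637, limma adjusted p = 0.00821). The groups did not overlap, and the gap between them was several times the control spread. Slc5a3, the myo-inositol transporter gene that overlaps Mrps6, changed by -0.10 (adjusted p = 0.48). Mrps7, which binds the ribosomal RNA of the small subunit, read 11.18 and 11.29 in control and 11.54 and 11.62 after knockdown (log2 difference 0.35, SE 0.0713, limma adjusted p = 0.0341). Its overlapping neighbours Gga3 and Mif4gd changed by -0.13 (adjusted p = 0.243) and -0.01 (adjusted p = 0.934).

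Mrpl14, a large-subunit protein at the interface with the small subunit, read 10.28 and 10.59 in control and 10.93 and 10.92 after knockdown (log2 difference 0.49, SE 0.108, limma adjusted p = 0.0402). Here the control arrays lay apart by nearly as much as the gap to the knockdown arrays, and without control replicate 1 the difference was 0.34, against 0.65 without control replicate 2. Tmem63b, which overlaps it, changed by 0.09 (adjusted p = 0.461).

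All 4 calls depended on having every array. With any 1 of the 4 arrays left out, limma called 0 of the 19938 genes, with 1660 to 2135 genes higher at an unadjusted p under 0.05, and so also ended the call of Kdm2b (adjusted p 0.196 to 0.258); the differences of the 4 genes then ran from -1.14 to -0.93 for Rps23rg1, 0.55 to 0.63 for Mrps6, 0.34 to 0.65 for Mrpl14 and 0.29 to 0.40 for Mrps7.

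**Figure D1:**
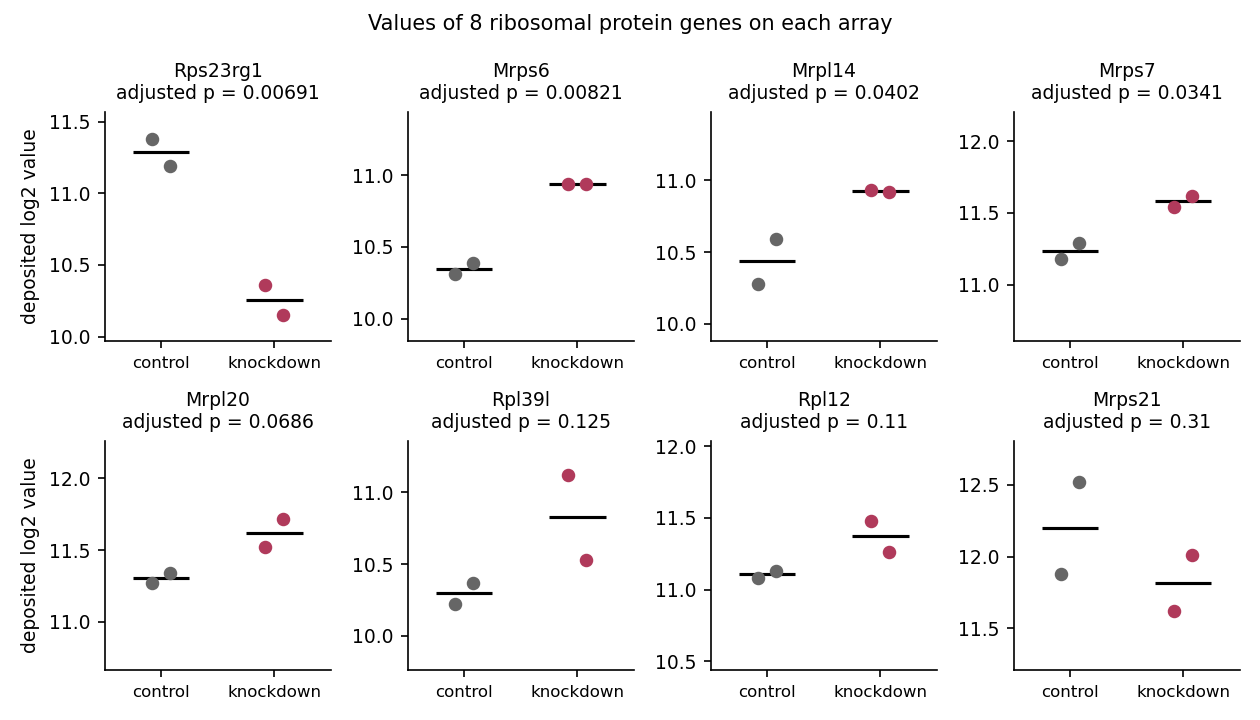
Deposited log2 values (vertical axes, each spanning the same range of log2 units around the gene's mean) of 8 ribosomal protein genes on the 2 control and 2 knockdown arrays; points are arrays and bars are group means. The groups separate in the called genes Rps23rg1, Mrps6, Mrpl14 and Mrps7 and also in Mrpl20, Rpl39l and Rpl12, which were not called. They did so in 58.8% of all genes. The knockdown arrays of Rpl39l spread from 10.53 to 11.12, and the groups of Mrps21 overlap.

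Among the other genes of the mitochondrial large subunit, differences were small and mostly upward. Of the 48 genes, 33 had a positive and 14 a negative change, with a median of 0.06 beside 0.03 over all genes, of which 56.9% had a positive change. Arrays lay above control without overlap in 21 (43.8%, beside 33.8% of all genes) and below it in 5 (10.4%, beside 25%). Mrpl20, which binds the large ribosomal RNA, read 11.27 and 11.34 in control and 11.52 and 11.72 after knockdown (log2 difference 0.32, SE 0.0856, limma adjusted p = 0.0686). Mrpl17 (adjusted p = 0.0626) and Mrpl12 (adjusted p = 0.106), a stalk protein that also contacts the mitochondrial RNA polymerase, each differed by 0.28, and Mrpl28 by 0.23 (adjusted p = 0.0759). In the other direction, Mrpl45, which tethers the ribosome to the inner membrane, read 11.64 and 11.63 in control and 11.42 and 11.44 after knockdown (log2 difference -0.21, SE 0.0597, limma adjusted p = 0.08). The replicates of Mrpl45 lay far closer together than the groups did, yet this gene too missed the threshold. At the ends of the signal range, Mrpl40 differed by 0.06, Mrpl10 by 0.05 and Mrpl41 by 0.19 (adjusted p = 0.202).

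In the mitochondrial small subunit, which holds Mrps6 and Mrps7, changes were also mostly upward. Of its 29 genes, 22 had a positive and 7 a negative change, with a median of 0.04 beside 0.03 over all genes; 11 (37.9%) lay above control without overlap and 2 below, against 33.8% and 25% of all genes. Mrps34 and Mrps2 each differed by 0.24 (adjusted p = 0.0759 and 0.0779) and Mrps11 by 0.23 (adjusted p = 0.082). Mrps18a, Mrps18b and Mrps18c, paralogues of a single bacterial protein, differed by 0.16, 0.15 and 0.01. Mrps24 (-0.18, adjusted p = 0.14) lay below control on both arrays. Mrps21 had the largest difference that missed the threshold, -0.39 (adjusted p = 0.31), but its control arrays read 11.88 and 12.52 and its knockdown arrays 11.62 and 12.01, so the groups overlapped. Mrps15 and Mrps17 differed by 0.01 and 0.04.

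Over the whole mitochondrial ribosome, 15 of 77 genes were higher and 2 lower at an unadjusted p under 0.05 in limma, beside 3015 and 2924 of 19938 genes. Of the 67 with a mean reading of 10 to 13, 73.1% had a positive change, with a median of 0.065. Genes outside the ribosomal classes at such readings had 46.2% and -0.015. Arrays lay above control without overlap in 41.8% of the 67 and below in 8.96%, beside 30.8% and 37.1% of those other genes. Limma called 4.48% of the 67 and 17.3% of the others. The 46 genes whose products have a counterpart in the bacterial ribosome, assigned by protein numbering, had a median of 0.04. These 46 held all 3 called genes (6.52%, beside 12.2% called among all genes). The 31 without one had a median of 0.08 and 0 called genes in limma (3 higher and 1 lower at an unadjusted p under 0.05). The difference between these groups was not tested. The median change of all 77, 0.06, was no larger than the difference between replicates: control replicate 2 lay above control replicate 1 by a median of 0.06 over the same genes, and knockdown replicate 2 above knockdown replicate 1 by 0.07. The sign count moved with the scaling of the arrays: 55 positive and 21 negative as deposited, 57 and 20 after quantile normalization, and 40 and 34 after centring the arrays on their medians. Centring shifts all genes alike, and the mitochondrial median went from 0.055 to 0.015 while that of all genes went from 0.03 to -0.01; after quantile normalization the medians were 0.0656 and 0.0075. For 74 of the 77 (96.1%, beside 89.7% of all genes) the 95% confidence interval of the difference stayed within 1.5-fold in either direction.

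**Figure D2:**
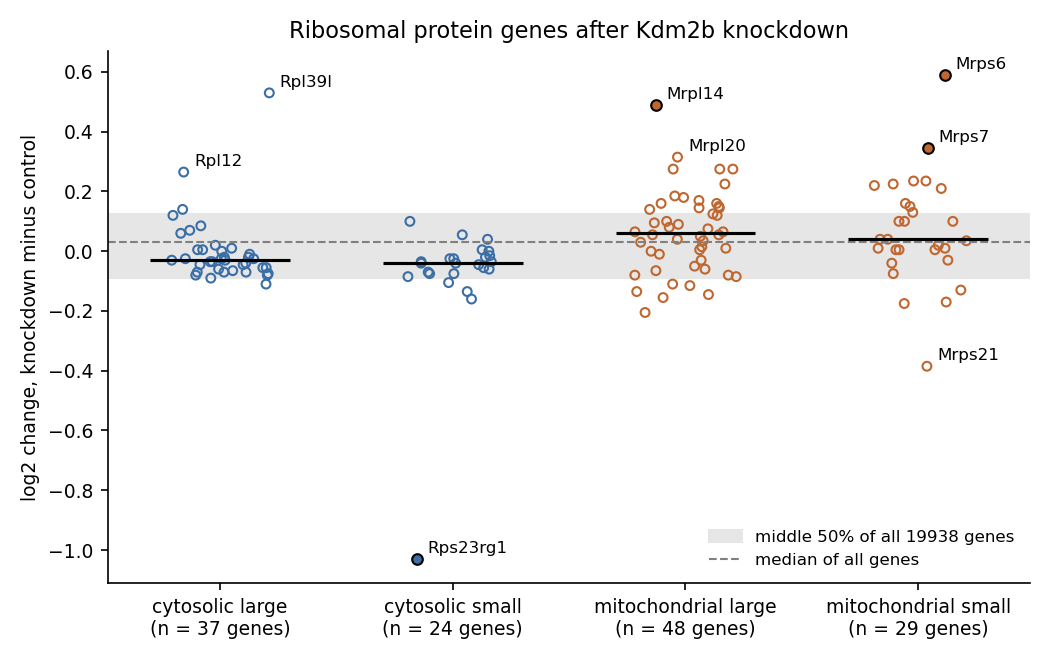
Log2 change of each ribosomal protein gene (vertical axis, knockdown minus control), by ribosome and subunit (horizontal axis, spread sideways for view); filled points are genes called by limma, black bars are class medians and the grey band holds the middle 50% of all genes. Cytosolic genes gather close to 0 apart from Rps23rg1, Rpl39l and Rpl12, and mitochondrial genes spread more widely.

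Cytosolic ribosomal protein genes held their level closely. Of the 61 genes, 51 differed by less than 0.1 on the log2 scale, against 8780 of all 19938 genes, and 36 of the 77 mitochondrial genes. With a mean reading above 13, 39 of 42 cytosolic genes did so, beside 317 of 498 genes outside the ribosomal classes. At 13 or under, 12 of 19 cytosolic genes did. The sign leaned downward: 44 changes were negative and 15 positive, with a median of -0.04 beside 0.03 over all genes. The lean lay in the 39 genes with several probe sets, 33 negative and 4 positive, whereas the 22 genes with 1 probe set split into 11 and 11, with a median of -0.015. Probe sets that carry further symbols do not enter this split. Of the 22, Rpl12, Rpl30, Rpl34 and Rps15a were positive here but mostly negative on brighter shared probe sets, given below. Rps19 was positive on both kinds. The 19 genes with a mean log2 reading of 13 or under split into 11 negative and 8 positive. Arrays lay below control without overlap in 24 genes (39.3%, beside 25% of all genes) and above in 9 (14.8%, beside 33.8%). Among genes outside the ribosomal classes with a mean reading above 13 these shares were 30.7% and 28.1%. The replicates of the class differed by a median of 0.02 in either group. For the 54 genes without paralogues and retrogenes, a grouping made after the values were seen, all 54 confidence intervals stayed within 1.5-fold, running from -0.32 to 0.48. So did the intervals of 89.7% of all genes, and of 98.6% of genes outside the ribosomal classes with a mean reading above 13.

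These probe sets gave readings near the top of the scale: 42 of the 61 had a mean above 13, where the highest value in the table is 14.74. Other genes above 13 were also seldom called, 13 of 498, and 255 of those 498 had a negative change. Whether the arrays respond less to a change at such readings was not tested. Rps23rg1, Rpl39l and Rpl12, which had the largest differences, are among the 19 cytosolic genes at 13 or under.

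In the cytosolic large subunit, 25 genes had a negative and 11 a positive change, with a median of -0.03. Rpl10, which completes the peptidyl transferase region late in assembly, read 14.34 and 14.37 in control and 14.32 and 14.34 after knockdown, a difference of -0.03 with overlapping arrays. Rpl28 differed by -0.05. Rpl5, which with Rpl11 and 5S RNA binds the p53 regulator Mdm2, differed by -0.07, and Rpl11, measured only with Brf2 on its probe set, by -0.04. The stalk proteins Rplp0 and Rplp1 differed by 0.01 and -0.06, and Rplp2 by 0.12 (adjusted p = 0.27). Rpl13 had the lowest difference of the subunit, -0.11 (adjusted p = 0.299).

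Rpl39l and Rpl12 had the highest. Rpl39l, a paralogue of Rpl39 known from the testis, read 10.22 and 10.37 in control and 11.12 and 10.53 after knockdown (log2 difference 0.53, SE 0.187, limma adjusted p = 0.125). Both knockdown arrays lay above control, but the 0.53 rests largely on knockdown replicate 1, without which it was 0.24. Rpl39 itself, whose probe set also carries Gm32211, differed by -0.02. Rpl12, a protein at the base of the stalk, read 11.08 and 11.13 in control and 11.48 and 11.26 after knockdown (log2 difference 0.27, SE 0.0885, limma adjusted p = 0.11). Of 8 further probe sets that carry Rpl12 beside another symbol, 7 had a negative change down to -0.07, and 1, named also for the small nucleolar RNA Snora65 that lies within Rpl12, changed by 0.28. Readings under the name Rpl12 therefore disagree in sign. The same held for Rpl30, a protein of the large subunit, at 0.14 on its own probe set and -0.04 to -0.02 on 10 shared ones, for Rpl34, at 0.07 and -0.06 to -0.025 on 4, and in the small subunit for Rps15a, at 0.06 and -0.045 to -0.04 on 2. The own probe sets of Rpl12, Rpl30, Rpl34 and Rps15a had mean readings of 11.24, 11.265, 11.435 and 10.86. Their brightest shared probe sets had 14.34, 13.61, 13.92 and 12.545.

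In the cytosolic small subunit, 19 genes had a negative and 4 a positive change, with a median of -0.04. Rps6, the protein that S6 kinase phosphorylates, read 14.22 and 14.26 in control and 14.19 and 14.26 after knockdown. Rps15 had a difference of 0.00, Rps19, mutated in Diamond-Blackfan anaemia, 0.04, and Rpsa, also known as a laminin receptor, -0.08. Rps14 (-0.14, adjusted p = 0.295) and Rps12 (-0.11, adjusted p = 0.334) lay below control without overlap, with 95% confidence intervals that include 0. Rps27l, a paralogue of Rps27 that p53 activates, read 13.46 and 13.43 in control and 13.23 and 13.34 after knockdown, the largest difference of the subunit that missed the threshold (-0.16, SE 0.068, limma adjusted p = 0.182).

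No other paralogue was called. Rpl7 and Rpl7l1 differed by -0.08 and 0.06, Rps4x and Rps4l by -0.06 and 0.10, Rpl22 by -0.09 and Rpl22l1, measured with Gm15421, by -0.19 (adjusted p = 0.201). Rpl3l, a heart and muscle form, differed by -0.08, and Rpl3, on a probe set with several symbols, by -0.05. Rpl26 differed by -0.07, Rpl36a by -0.04 and Rpl36al, measured with Dnaaf2, by 0.05.

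Many probe sets named for cytosolic genes lie away from the gene itself; processed pseudogenes, intron-less copies of these messenger RNAs, are scattered over the genome. By the numbering of the probe sets, whose neighbours placed 99.8% of 18768 single-probe-set genes on their own chromosome, the brightest probe set lay on another chromosome than the gene in 32 of 61 cytosolic genes and in 5 of 77 mitochondrial ones. In all, 156 of 217 cytosolic probe sets lay on other chromosomes, against 7 of 85 mitochondrial ones. Rps12 alone had 14, with 8 distinct sets of values among them, so that several share their probes, and Rpl23a had 13. The 39 cytosolic genes with several probe sets gave nearly the same change from each: the spread within a gene had a median of 0.03 and stayed under 0.1 in 37.

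In 36 cytosolic genes both placements could be set side by side, and their medians were -0.04 and -0.04. Rpl23, a further Mdm2-binding protein, stood apart: the probe set elsewhere changed by -0.03, while the one on its own chromosome read 11.78 and 12.14 in control and 12.38 and 12.08 after knockdown, a change of 0.27 with overlapping arrays. Rplp0 changed by 0.01 elsewhere and by 0.13 on its own chromosome (adjusted p = 0.223). Further probe sets also differed in sign for Rpl23a, Rpl27, Rpl27a and Rps28, and, around a change of 0.00, for Rpl7a (-0.025 to 0.01) and Rps15 (-0.01 to 0.005), all with changes of at most 0.03 in size at their brightest probe set, and for Mrpl47 (0.28 and -0.01) and Mrpl51 (0.07 and -0.01).

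**Figure D3:**
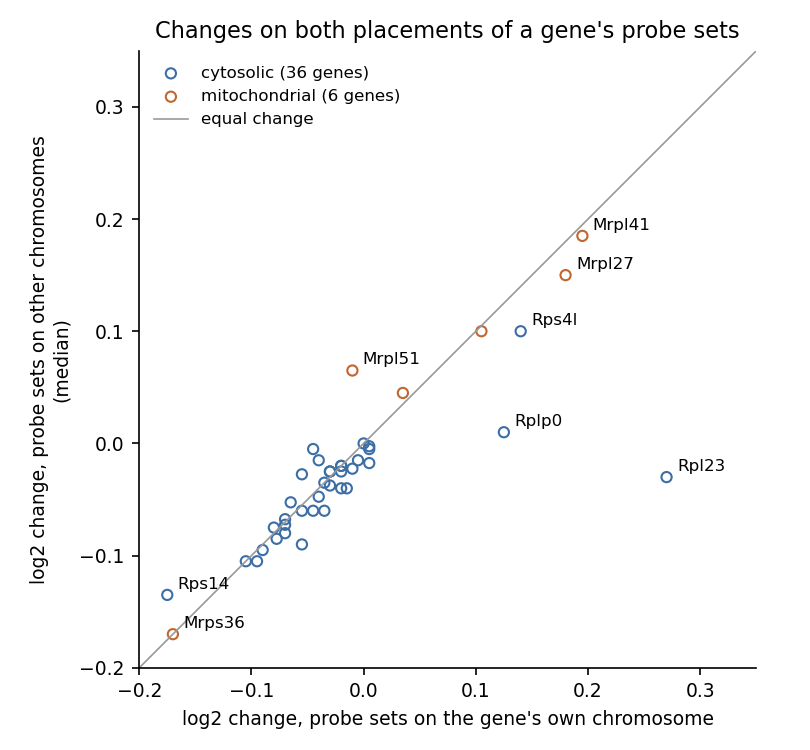
Median log2 change of the probe sets that lie on a gene's own chromosome (horizontal axis) against those on other chromosomes (vertical axis), for 36 cytosolic and 6 mitochondrial genes; the line marks equal change. Rpl23 and Rplp0 lie farthest from the line, to its right, and Mrpl51 lies next, to its left; the other genes lie within 0.04 of equal change.

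The rule leaves out cytosolic genes whose probe sets all carry further symbols, usually pseudogenes or predicted genes: 14 of the large and 6 of the small subunit, with Mrpl53 as the only mitochondrial one. The 240 shared probe sets, which carry 40 symbols of these families, ran the same way as the cytosolic genes: 205 negative, 28 positive and 7 at zero change, with a median of -0.03. They are not independent readings. Many repeat the same gene, some with the same value on every array, and many carry genes already among the 61. The highest, 0.72, was a probe set carrying Rps13 and the small nucleolar RNA Snord14a, which read 9.49 and 9.35 in control and 10.33 and 9.94 after knockdown, while the Rps13 probe set of the 61 changed by -0.09. Among the 5 probe sets shared with a small nucleolar RNA, the changes ran from -0.18 to 0.72.

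**Figure D4:**
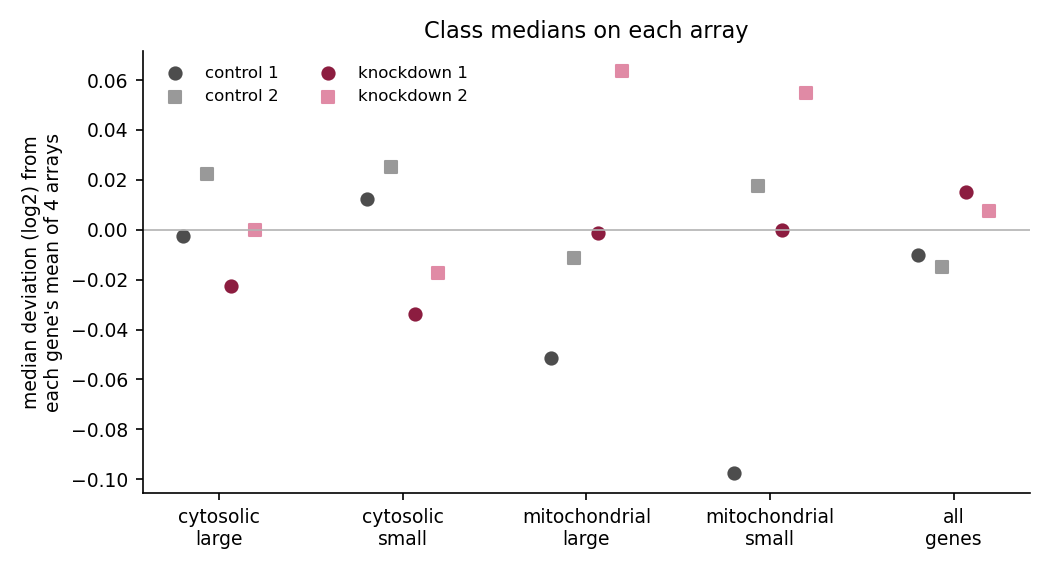
Median over the genes of each class (horizontal axis) of an array's value minus the gene's mean over the 4 arrays (vertical axis, log2 units), for each array. In both mitochondrial subunits control replicate 1 lies lowest and knockdown replicate 2 highest, and the replicates of 1 group in each subunit (knockdown in the large, control in the small) lie at least as far apart as the group means.

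Other genes of translation were compared by lists. None of 35 cytosolic translation factors was called by limma (1 higher and 1 lower at an unadjusted p under 0.05), with a median change of -0.02 and the largest difference in Eef1d, a subunit of the elongation factor 1 exchange complex (0.24, adjusted p = 0.0622). None of 15 mitochondrial translation factors was called (4 higher and 2 lower at an unadjusted p under 0.05); Tufm, the mitochondrial elongation factor Tu, differed by 0.39 (adjusted p = 0.0589) and Guf1 by -0.31 (adjusted p = 0.0993). Of 7 ribosomal proteins under other names, which include Mrpl58 again, 0 were called, and 0 had an unadjusted p under 0.05; Fau differed by 0.03 and Dap3 by -0.14.

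Some genes that build or regulate ribosomes were called, at shares near that of other genes with similar readings. The lists of assembly genes and of growth regulators had median readings of 10.63 and 11.30. Of genes outside the ribosomal classes with a mean reading of 10 to 13, 17.3% were called in either direction. Of 21 mitochondrial ribosome assembly genes 4 were called (19%, beside 12.2% of all genes). Noa1, a GTPase needed for the small subunit, read 11.28 and 11.60 in control and 12.15 and 12.13 after knockdown and rose by 0.70 (SE 0.111, limma adjusted p = 0.0176). Mrm1, which methylates the large ribosomal RNA, fell by 0.46 (adjusted p = 0.0282), Trub2, a pseudouridine synthase, by 0.36 (adjusted p = 0.0472) and Mtg1, a GTPase of the large subunit, by 0.32 (adjusted p = 0.0429; 0.0521 after quantile normalization, which ends the call). Of 20 growth regulators of translation 3 were called, all lower (15%, beside 12.2% of all genes in either direction). Eef2k, the kinase that inhibits elongation factor 2, read 10.18 and 10.06 in control and 9.53 and 9.35 after knockdown (log2 difference -0.68, SE 0.0865, limma adjusted p = 0.0113). Tsc1, an inhibitor of mTOR complex 1, fell by 0.59 (adjusted p = 0.0191) and Mtor, the kinase itself, by 0.30 (adjusted p = 0.0379). The called members of this list hold both the kinase and its inhibitor.

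RefSeq promoter windows of 300 bases, 250 before the start and 50 from it on, were found for 117 of the 138 genes and for 15614 genes in all. For a gene with several windows the highest CpG count was taken, and a motif counted if any window held it. Members were richer in CpG than the whole: a median of 21 per gene in either ribosome against 16. Mrps6 held 39, Mrps7 38 and Mrpl14 37, more than 92.8%, 91.9% and 91% of all genes, and 1, 4 and 5 members held more than they did. Rps23rg1 held 4, and 2 members held fewer. Among the 21 mitochondrial genes with 25 or more CpG the median change was 0.10 and 3 were called (14.3%), where 15.4% of all genes with such windows were called. None of the 15 with under 15 was called, where 8.99% of all such genes were. The 32 with 15 to 24 also held no called gene, where 15.2% of all such genes were called. CpG count and change correlated across genes at a Spearman rho of 0.097 in 68 mitochondrial and 0.223 in 49 cytosolic genes and -0.085 over all; genes share the 4 arrays and are not independent replicates.

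**Figure D5:**
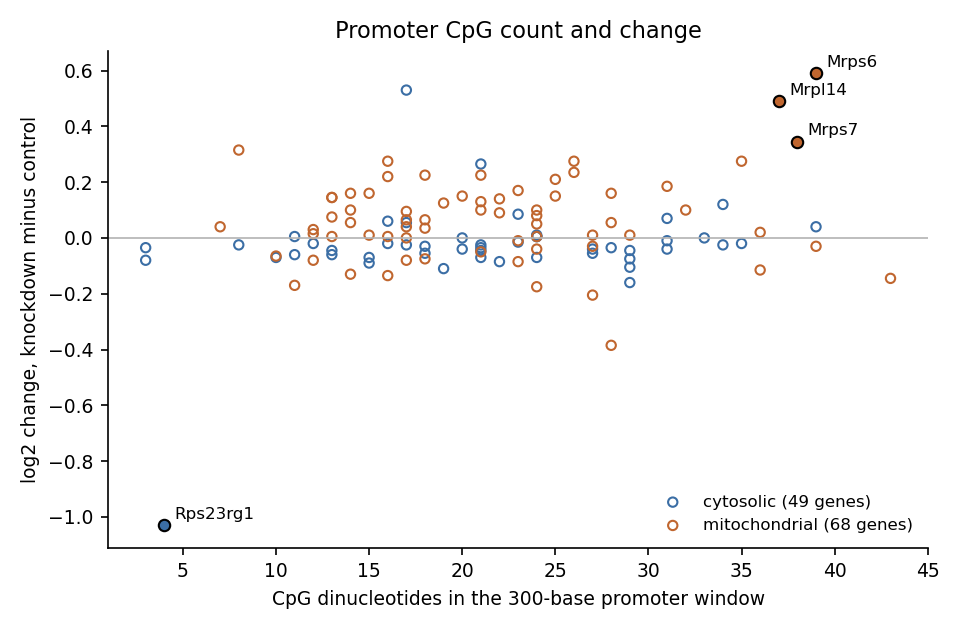
CpG dinucleotides in the 300-base promoter window (horizontal axis) against log2 change (vertical axis) for the 117 ribosomal protein genes with a window; filled points are called genes. Mrps6, Mrps7 and Mrpl14 sit at 37 to 39 CpG and Rps23rg1 at 4, while the other genes with 36 or more lie between -0.15 and 0.04.

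The windows were searched on both strands for 5 motifs known from such promoters. The ETS motif CCGGAAG stood in 37.6% of members and 13.6% of all genes, the NRF1 core GCATGCG in 11.1% and 5.39%, and the YY1 motif AAGATGG in 19.1% of mitochondrial, 10.2% of cytosolic and 7.28% of all genes. In the 100 bases before the start alone, the ETS motif stood in 21.4% of members and 7.28% of all genes, while the YY1 motif stood in 1.71% and 1.72%. The TATA box TATAAA stood in 9.4% of members and 13.6% of all genes, and the E-box CACGTG in 8.55% and 9.5%. A TOP-like start, a C followed by 4 pyrimidines at the annotated start, was found in 10 of 49 cytosolic genes (20.4%), 0 of 68 mitochondrial ones and 2.75% of all. Of the called genes, the window of Mrps7 held a YY1 match, and those of Mrps6, Mrpl14 and Rps23rg1 held none of the 5 motifs. A match is a description of letters in the window and not of binding.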

How the data were processed

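The values that the authors deposited are log2 signals of 35557 probe sets on 4 arrays. Per the submitters' processing notes they come from Affymetrix Expression Console; how it corrected background, summarised probes and scaled the arrays is not given in the sources used here. The log2 scale was read from the values, 3.12 to 14.74; array medians were 8.49 and 8.51 (control) and 8.55 and 8.53 (knockdown). Of the probe sets 21789 had 1 symbol in the platform annotation, 1621 several and 12147 none, and 21698 of the 21789 matched RefSeq (GRCm38.p6) by Entrez ID. The brightest probe set of each symbol gave 19938 genes.

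Groups came from the sample titles. The comparison used limma 3.58.1 under R 4.3.3 (lmFit and eBayes, group as the only term, two-sided, 2 residual and 3.9 prior degrees of freedom, Benjamini-Hochberg over 19938 genes); SE is limma's moderated one. The procedure was tested on simulated data. The number of arrays limits the precision.

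The members, the lists and the rules were chosen with earlier results of these data known. Named are Kdm2b, all called members, per class the 2 brightest, the dimmest and the largest difference not called, fixed paralogues and regulators, genes whose probe sets differ in sign, and up to 3 called genes per list and direction. Chosen after their values were seen: the other genes with differences given (Mrpl17, Mrpl12, Mrpl28, Mrpl45, Mrps34, Mrps2, Mrps11, Mrps24, Rpl12, Rpl13, Rpl30, Rpl34, Rpl7a, Rps15a, Rps12, Rps13, Rps14, Eef1d, Tufm, Guf1, Fau, Dap3, overlapping genes), the paralogue and bacterial-counterpart groups and the placement by chromosome, for which 15 neighbours on each side were read. The same replicate numbers in both groups do not pair the arrays by the labels; deviations of same-numbered arrays correlated at 0.095 across 19938 genes.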

Additional observations from a re-analysis of the deposited data

How the results depend on the processing

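Leaving out each array in turn, with the lone array of a group assumed to vary like the other group, left 0 called genes in limma in either direction over all genes, among cytosolic genes (lower) and among mitochondrial genes (higher), at 1660 to 2135 higher and 1734 to 2172 lower genes with an unadjusted p under 0.05. With the replicate number as a block the counts were also 0, 0, 0 and 0 (2733 higher and 2678 lower at an unadjusted p under 0.05), and 17 named calls were lost; the numbers are not shown to pair the arrays, so these are not weaker effects. The median change ran from 0.015 to 0.095 in the mitochondrial genes, from -0.005 to 0.11 in their small subunit and from -0.04 to -0.01 in the cytosolic large subunit with 1 array left out. Near-zero differences changed sign there: Mrps15 (-0.05 to 0.07), Mrps17 (-0.07 to 0.15), Mrps18c (-0.04 to 0.05), Rpl27a (-0.03 to 0.01), Rpl36a (-0.10 to 0.02), Rplp0 (-0.005 to 0.025), Rps28 (-0.015 to 0.025) and Rps6 (-0.05 to 0.02).

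Scaling moved class medians. After quantile normalization the median was 0.0075 over all genes, -0.0181 in the cytosolic large and 0.0612 in the mitochondrial small subunit, and Rps6 (0.0081) and Rpl27a (0.0063) changed sign; the adjusted p of Mtg1 was 0.0521. Centring arrays on their medians gave -0.01 over all genes, -0.075 in cytosolic and 0.015 in mitochondrial genes, -0.07 in the cytosolic large, 0.02 in the mitochondrial large and 0 in the mitochondrial small subunit, and Mrps15 (-0.03), Mrps18c (-0.035), Rplp0 (-0.03), Rpl27 (-0.035) and Rps28 (-0.035) changed sign. The split of cytosolic changes was then 9 positive and 51 negative. The 4 called members kept their direction and call under both scalings.

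Averaging the probe sets of a gene gave 0.12 for Rpl23 and -0.0007 for Rps28, and own-chromosome probe sets alone, an alternative added after seeing the data, gave 0.27 for Rpl23, -0.01 for Mrpl51 and 0.005 for Rpl27a. Cytosolic large-subunit genes under level 13 had a median of 0.0175, and genes above the median level one of -0.005 over all genes. An adjusted p under 0.1 gave 1920 higher and 2236 lower genes, with 9 higher and 1 lower mitochondrial ones, and a fold of at least 1.5 in addition gave 240 and 447, with 1 higher mitochondrial gene. In the window of 100 bases before the start, members held a median of 8 CpG (6 over all genes), the ETS motif in 21.4% (7.28%), the YY1 motif in 1.71% (1.72%) and the NRF1 core in 4.27% (2.79%; 0% of cytosolic and 7.35% of mitochondrial genes). A trend or robust prior and every probe set of a gene moved none of the counts beyond 1.5-fold.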
